A study of Mus musculus with 12 samples.

Results

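The genes described here write, copy and remove DNA methylation in undifferentiated spermatogonia of the mouse. They are the DNA methyltransferase genes Dnmt1, Dnmt3a, Dnmt3b and Dnmt3l, the UHRF genes Uhrf1 and Uhrf2, the ten-eleven translocation genes Tet1, Tet2 and Tet3, and the thymine DNA glycosylase gene Tdg. They were chosen by symbol from a table of 21859 protein-coding genes. The 10 genes were all found in the table, and all 10 were among the 16932 genes expressed highly enough to be tested.

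Methylated cytosine in CpG pairs is copied to the new DNA strand at replication by DNMT1, which UHRF1 brings to half-methylated sites, and is laid down on unmethylated DNA by DNMT3A and DNMT3B, helped by the catalytically inactive DNMT3L. TET enzymes oxidize methylcytosine, and TDG cuts the most oxidized forms out of DNA, so that repair can put back an unmodified cytosine. In the male germ line most methylation is set before birth, and its upkeep goes on in adult spermatogonia. The study, citing earlier work, counts DNMT3A and DNMT3B among factors crucial when spermatogonial stem cells self-renew or differentiate.

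RNA was measured in GFRa1+/Kit- cells, a sort for early spermatogonia that include the stem cells, from mice carrying the GFRa1-EGFP reporter. Males of 8 to 10 weeks underwent surgery that made them cryptorchid on the left side, with that testis moved up out of the scrotum. Control cells came from the scrotal testis on the right side. Cells were sorted on day 10 after surgery, and each Smart-seq2 library, a full-length cDNA method for small samples, held RNA of about 200 cells. There were 5 control libraries, with the genotype label WT, and 7 cryptorchid libraries, with the genotype label Cryptorchid. Which libraries came from the same mouse was not stated, so that the P-values measure the spread between libraries, which may in part be technical. Testes were digested for 9 min at 32 °C in the control group and at 37 °C in the cryptorchid group, so that digestion temperature and cryptorchidism cannot be told apart. The control testis lay in an operated animal and is not a testis of an untouched mouse.

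Reads on genes numbered from 4511730 to 24345368 per control library and from 3306771 to 20027902 per cryptorchid library. The libraries fell into 2 technical sets by their read numbers. In set 1, replicates 1 to 3 of both groups, 53.2% to 60.8% of genes with few reads had an even number of reads, and in set 2, control replicates 4 and 5 and cryptorchid replicates 4 to 7, this was 48.2% to 50.5%. Set 1 was also the deeper one, with a median of 14579161 reads on genes against 4484902 in set 2. As both groups were present in both sets, the differences of the 10 genes, of Dnmt3c and of the named pathway genes are also given within each set. Markers of undifferentiated spermatogonia were present in both groups. Zbtb16 lay at 8.33 ± 0.686 log2 RPM, a read number scaled to library size, in control (SD, n = 5) and 8.54 ± 0.57 in cryptorchid libraries (SD, n = 7). Gfra1 lay at 7.88 ± 0.884 and 8.40 ± 0.704. Kit, which marks differentiating cells, lay at 4.49 ± 0.627 and 4.94 ± 0.567 log2 RPM (exact P = 0.268). RNA of later germ cells was also abundant. The spermatid gene Prm2 had a mean of 9.32 log2 RPM in control and 5.59 in cryptorchid libraries. The spermatocyte gene Ldhc, named after its value was seen, had means of 8.89 and 8.23. In control both lay above Zbtb16 and Gfra1, and the other spermatid and spermatocyte markers compared below lay under Gfra1. These levels do not show how pure the sort was.

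Among the 10 genes, Tet1 rose and Dnmt3b and Tet3 fell in cryptorchid spermatogonia at an unadjusted limma P-value under 0.05. At this threshold 5.67% of all tested genes were higher and 3.82% lower. With a 2-fold limit added, Tet1 remained higher and Dnmt3b lower, against 3.56% and 2.36% of all tested genes. After Benjamini-Hochberg adjustment over all tested genes, 0 of the 10 genes passed 0.05 and 0.0118% of all tested genes did. The median log2 difference between cryptorchid and control was -0.18 over the 10 genes and 0.10 over all tested genes. In bulk libraries a lower level in each cell cannot be told apart from fewer cells that express the gene.

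**Figure D1:**
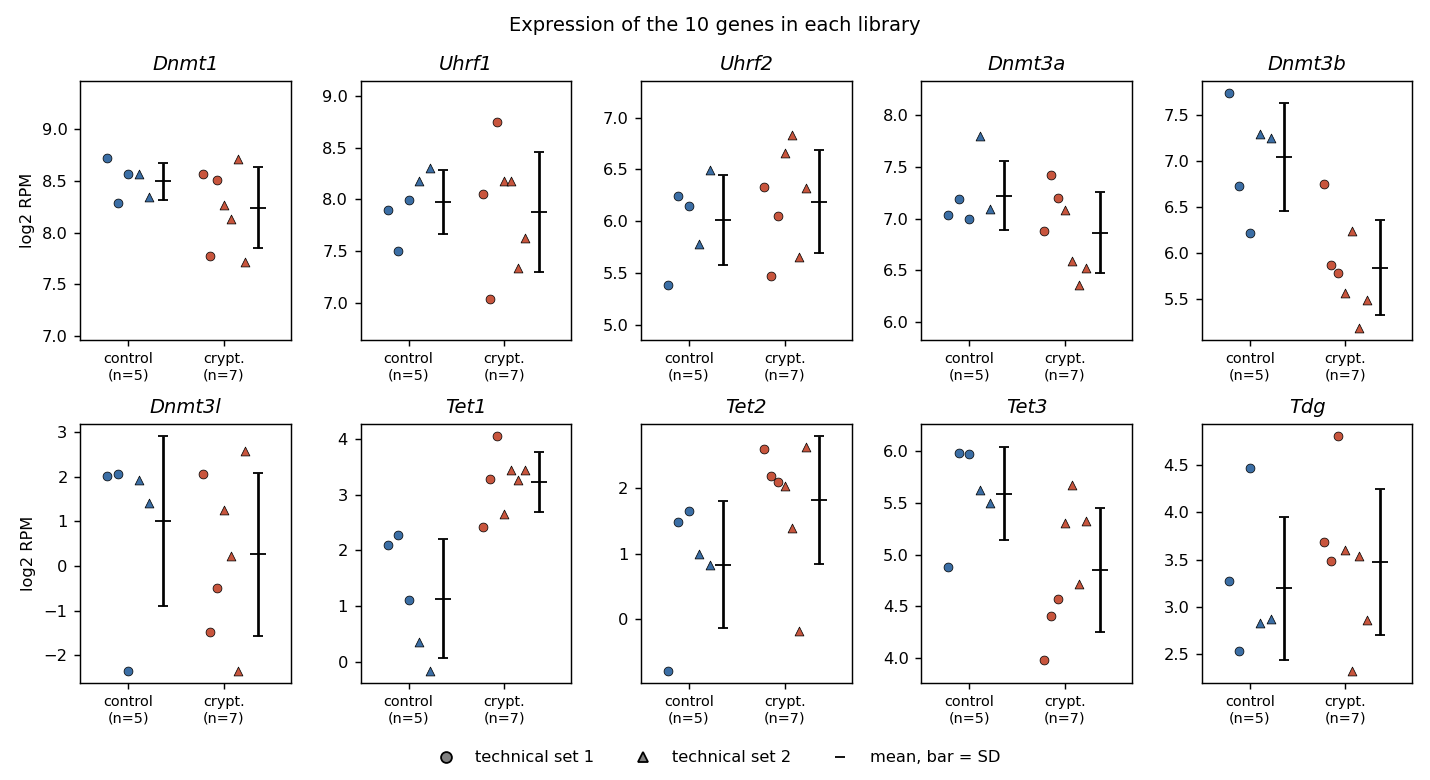
Level of each of the 10 genes (log2 RPM, vertical axis) in the 5 control and 7 cryptorchid libraries, with circles for technical set 1, triangles for set 2 and the mean with its SD beside the points. The 7 cryptorchid libraries sit above the 5 control libraries for Tet1, and 5 of 7 sit below all control libraries for Dnmt3b.

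The sequences around an annotated start site of each of the 3 genes that passed the unadjusted test are shown because these windows differ in CpG content. Which start sites are used in these cells was not measured. The gene spans of Tet1 and Tet3, given below, begin upstream of their windows. Each is 300 bases from RefSeq, on build GRCm38.p6, from 250 bases before the start site to 50 after it, written from 5′ to 3′ on the strand of the gene with every CpG in capitals. Dnmt3b lies at chr2:153649199-153649498 on the plus strand, Tet1 at chr10:62887275-62887574 on the minus strand and Tet3 at chr6:83441629-83441928 on the minus strand.
Dnmt3b: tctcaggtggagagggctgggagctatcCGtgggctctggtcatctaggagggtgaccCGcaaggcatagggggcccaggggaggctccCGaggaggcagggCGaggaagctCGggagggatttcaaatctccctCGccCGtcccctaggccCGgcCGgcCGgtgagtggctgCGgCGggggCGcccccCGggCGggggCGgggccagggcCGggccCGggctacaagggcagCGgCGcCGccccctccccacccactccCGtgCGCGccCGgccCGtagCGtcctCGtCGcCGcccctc
Tet1: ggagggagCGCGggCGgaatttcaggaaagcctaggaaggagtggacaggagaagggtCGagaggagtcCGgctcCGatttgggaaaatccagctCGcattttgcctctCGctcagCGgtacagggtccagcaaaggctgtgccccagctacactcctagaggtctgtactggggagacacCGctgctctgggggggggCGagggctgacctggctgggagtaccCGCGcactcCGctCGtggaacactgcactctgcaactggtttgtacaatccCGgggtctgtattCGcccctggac
Tet3: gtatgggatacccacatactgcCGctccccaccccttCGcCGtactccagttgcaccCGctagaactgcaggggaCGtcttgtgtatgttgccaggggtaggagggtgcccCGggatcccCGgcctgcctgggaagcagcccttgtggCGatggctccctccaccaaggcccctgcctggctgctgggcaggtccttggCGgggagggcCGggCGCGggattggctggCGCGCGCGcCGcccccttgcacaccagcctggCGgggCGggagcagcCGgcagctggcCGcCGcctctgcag
The Dnmt3b window held 30 CpG, the Tet3 window 22 and the Tet1 window 17, where the median over 32851 mouse windows of this kind was 7. Most members that did not pass the test were also rich in CpG. Their richest windows held 57 for Tet2, 47 for Dnmt3a, 33 for Dnmt1, 33 for Uhrf1, 28 for Uhrf2, 26 for Tdg and 6 for Dnmt3l. Of these windows, 33.3% had a GC content above 50% together with an observed to expected CpG ratio above 0.6. Dnmt3b, with a ratio of 0.69, and Tet1, with 0.61, met both limits, whereas Tet3, with 0.58, lay just under the second. The GC box, searched as GGGCGG on both strands, occurred 4 times in the Dnmt3b window, 2 times in the Tet3 window and 1 time in the Tet1 window, and was found in 35.7% of all windows. The heat shock element, searched as GAANNTTC, was in 7.86% of all windows and in 1 of the 17 windows of the 10 genes, a second start site of Dnmt1.

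Genes for the upkeep of methylation included the 2 most abundant of the 10 per length, Uhrf1 and Dnmt1, and no difference between the groups was detected for Dnmt1, Uhrf1 or Uhrf2. Dnmt1, the maintenance methyltransferase (chr9:20907209-20959888, minus strand), lay at 8.72, 8.29, 8.57, 8.57 and 8.34 log2 RPM in the control libraries, and at 7.71 to 8.71 with a median of 8.27 in the cryptorchid libraries. The groups overlapped widely, with a log2 difference of -0.26 (SE 0.255, limma P = 0.319, adjusted P = 0.779, exact two-sided rank sum P = 0.202). The difference was -0.25 in both technical sets.

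Uhrf1, which reads half-methylated CpG and recruits DNMT1 (chr17:56303321-56323486, plus strand), lay at 7.90, 7.5, 7.99, 8.18 and 8.30 log2 RPM in control, and at 7.04 to 8.75 with a median of 8.05 in cryptorchid libraries. The cryptorchid libraries spread on both sides of the control range, and the log2 difference was -0.10 (SE 0.296, limma P = 0.751, exact P = 1.0). It had opposite signs within the sets, at 0.15 in set 1 and -0.41 in set 2. Uhrf2, a paralog of Uhrf1 (chr19:30030513-30093722, plus strand), ranged from 5.38 to 6.49 log2 RPM in control and from 5.47 to 6.83 in cryptorchid libraries, with a log2 difference of 0.18 (SE 0.290, limma P = 0.548, exact P = 0.530). It was 0.03 in set 1 and 0.23 in set 2. Within a library, the log2 ratio of Dnmt1 to Uhrf1 differed by -0.17 between the groups (exact two-sided Wilcoxon rank sum test, P = 0.432) and that of Uhrf1 to Uhrf2 by -0.27 (exact P = 0.343).

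Dnmt1 and Uhrf1 were also the members with a motif of the E2F factors, which drive genes of DNA replication, near a start site. The motif was searched as TTTCGCGC or TTTGGCGC on both strands and was found in 0.813% of the 32851 windows, in 1 of the 3 windows of Dnmt1 and in 1 of the 2 windows of Uhrf1, and in none of the windows of the other 8 genes. The matches are shown with their flanks on the strand of the gene (GRCm38.p6) and with the motif in capitals, at chr9:20952824-20952853 and chr9:20952574-20952601 on the minus strand for Dnmt1 and at chr17:56304117-56304146 on the plus strand for Uhrf1.
Dnmt1, upstream match: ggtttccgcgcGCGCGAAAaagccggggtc
Dnmt1, downstream match: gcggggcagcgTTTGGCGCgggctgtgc
Uhrf1, upstream match: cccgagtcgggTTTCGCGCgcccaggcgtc
A match of letters is not a measured binding site. At an unadjusted limma P-value under 0.05, 1 of 20 S-phase genes was higher (Ccne2, named after its value was seen) and 0 were lower. Over all tested genes the shares were 5.67% higher and 3.82% lower. The 20 genes include many that E2F factors control, and their median log2 difference was 0.15. Their summed level ranged from 1164 to 3244 RPM in control and from 1459 to 3820 RPM in cryptorchid libraries, so that the ranges overlapped. Whether E2F factors act on Dnmt1 or Uhrf1 in these cells was not tested.

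Dnmt3b, one of the pair of active de novo methyltransferases (chr2:153649450-153687730, plus strand), was lower in cryptorchid spermatogonia. It lay at 7.74, 6.73, 6.22, 7.29 and 7.25 log2 RPM in the control libraries. In the cryptorchid libraries it ranged from 5.19 to 6.75, with a median of 5.78. All 7 cryptorchid libraries were below the control median and 5 were below every control library, while control replicates 2 and 3 lay within the cryptorchid range. Group means were 7.05 ± 0.584 (SD, n = 5) and 5.84 ± 0.518 (SD, n = 7), a log2 difference of -1.20 (95% interval -1.86 to -0.55, SE 0.311), or 2.30-fold lower. The limma P-value was 0.00114, rank 87 of the 16932 tested genes, and 0.215 after adjustment. The exact two-sided rank sum test gave P = 0.0177, or 0.0233 with libraries exchanged only within their set, and an adjusted P of 0.425. Dnmt3b was lower in both sets, by a log2 difference of -0.77 in set 1 and -1.64 in set 2. In limma fits of 1 set alone, set 2 passed the unadjusted threshold and set 1 did not. A limma test of the difference between the sets gave an unadjusted P of 0.168 (adjusted P of 1.0). With so few libraries per set, this does not show that the sets agree. The reads behind these values numbered 685 to 5221 per control library and 166 to 2397 per cryptorchid library.

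Dnmt3a, the other active de novo enzyme (chr12:3806007-3914443, plus strand), lay at 7.03, 7.19, 7.0, 7.80 and 7.09 log2 RPM in control and at 6.36 to 7.42 with a median of 6.88 in cryptorchid libraries. The groups overlapped, although 4 of 7 cryptorchid libraries were below every control library. The log2 difference of -0.36 (SE 0.253) did not pass the test (limma P = 0.177, adjusted P = 0.693, exact P = 0.268). With array weights, which count libraries of high scatter less, the difference was -0.54 and passed the unadjusted threshold. In the unweighted fit it was 0.09 in set 1 and -0.80 in set 2, which passed the unadjusted threshold in a limma fit of that set alone. The limma test of the difference between the sets gave an unadjusted P of 0.0739 (adjusted P of 1.0), which does not show that the sets agree.

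The log2 ratio of Dnmt3a to Dnmt3b within a library compared both de novo enzymes without regard to library scaling. It ranged from -0.71 to 0.78 in control and from 0.14 to 1.55 in cryptorchid libraries, a difference of 0.85 that missed the threshold (exact two-sided rank sum test, P = 0.0732, within sets P = 0.0900). The difference was 0.86 in set 1 and 0.84 in set 2, and it passed the threshold without cryptorchid replicate 1 (1.0) or 5 (0.96), with an exact P of 0.0303 in both cases. Per length of merged exons, Dnmt3b made up a median of 70.3% of the sum of both genes in control (65.6% to 84.2%) and 59.1% in cryptorchid libraries (52.7% to 74.8%). By this measure Dnmt3b was the larger of the pair in all 12 libraries, which assumes that all merged exons are used. In RPM, without regard to length, Dnmt3a was above Dnmt3b in 3 of 5 control and 7 of 7 cryptorchid libraries.

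Dnmt3l, the inactive cofactor that acts mainly in fetal and neonatal male germ cells (chr10:78041947-78063622, plus strand), was at the edge of detection, with 2 to 121 reads per control library and 0 to 93 in the cryptorchid group. Cryptorchid replicate 6 had 0 reads and control replicate 3 had 2, both under a floor of 3 reads. The log2 difference of -0.76 (SE 1.02, limma P = 0.467, exact P = 0.639) was within the spread of the libraries. It was -0.55 in set 1 and -1.24 in set 2, and 2 libraries decided much of its size, as it was -1.60 without control replicate 3 and -0.32 without cryptorchid replicate 6, neither past the threshold. Dnmt3l shares 67 exon bases with Aire on the other strand, and its 3 windows held 3 to 6 CpG. Dnmt3c, a copy of Dnmt3b that lies next to it on the plus strand (chr2:153696652-153729907) and silences young retrotransposons in fetal male germ cells, had 7 to 38 reads per control library and 0 to 70 per cryptorchid library, with a log2 difference of -1.30 (SE 0.988, limma P = 0.206, exact P = 0.432). The Dnmt3c difference was -0.34 in set 1 and -2.75 in set 2, and -1.99 with array weights, where the fits of set 2 alone and with array weights passed the unadjusted threshold. How reads shared by the copies were counted was not stated, so that this value is uncertain.

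**Figure D2:**
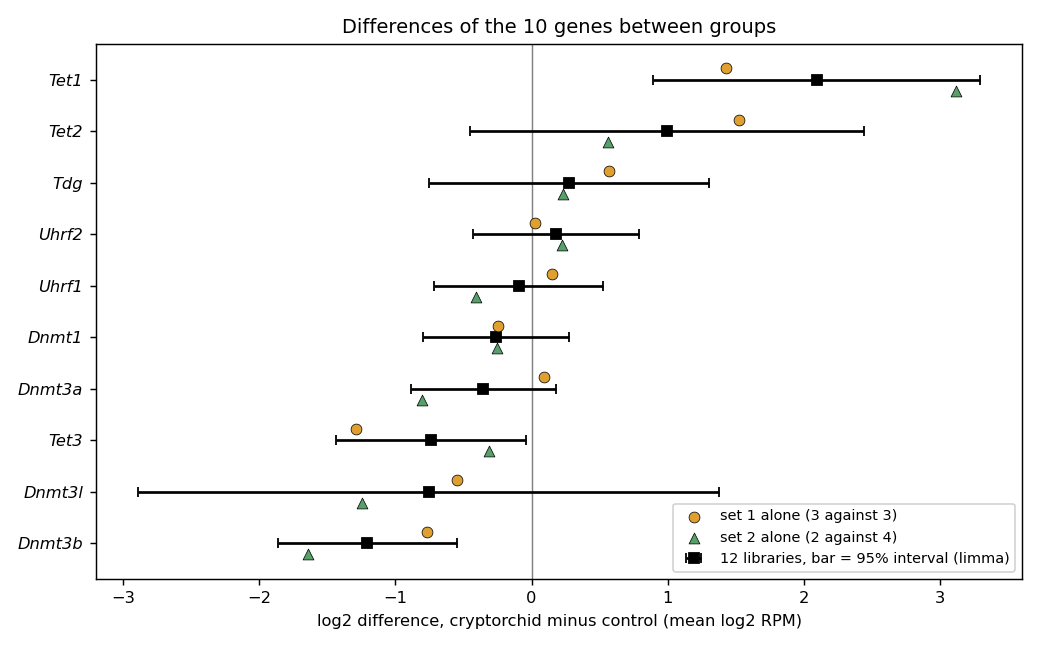
Log2 difference between the mean log2 RPM of cryptorchid and control libraries for each gene (horizontal axis), as squares with the 95% interval of limma over 12 libraries, and as circles and triangles for technical set 1 and set 2 alone. Intervals of Tet1, Dnmt3b and Tet3 do not reach 0, and Dnmt3a and Uhrf1 have opposite signs in set 1 and set 2.

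Tet1, which oxidizes methylcytosine (chr10:62804570-62908996, minus strand), was higher in cryptorchid spermatogonia. It lay at 2.09, 2.28, 1.11, 0.35 and -0.17 log2 RPM in the control libraries. In the cryptorchid libraries it ranged from 2.43 to 4.06, with a median of 3.29. Every cryptorchid library was above every control library, which held for 0.555% of all tested genes, while 0.283% of genes separated in the other direction and 0 of the 10 genes did. Group means were 1.13 ± 1.07 (SD, n = 5) and 3.23 ± 0.542 (SD, n = 7), a log2 difference of 2.09 (95% interval 0.89 to 3.29, SE 0.571), or 4.27-fold. The limma P-value was 0.00179, rank 134, and 0.223 after adjustment. The exact two-sided rank sum test gave P = 0.00253, the smallest it can give for 5 against 7 libraries (adjusted P = 0.301), and 0.00333, again the smallest possible, within sets. The log2 difference was 1.43 in set 1, where the limma fit of that set alone did not pass, and 3.11 in set 2, where it did. The limma test of the difference between the sets gave an unadjusted P of 0.130 (adjusted P of 1.0), which does not show that the sets agree.

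The level of Tet1 was low in absolute terms. It rested on 4 to 140 reads per control library and 29 to 140 per cryptorchid library, and the lowest control values, in replicates 4 and 5 of set 2, rested on 7 and 4 reads. In voom, which weights values by read number, the log2 difference was 1.54 and still passed the unadjusted threshold.

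Tet3, another oxidizing enzyme and the most abundant of the family here (chr6:83362373-83459084, minus strand), was lower in cryptorchid spermatogonia by a smaller margin. It lay at 4.88, 5.98, 5.97, 5.62 and 5.50 log2 RPM in control. In the cryptorchid libraries it ranged from 3.98 to 5.67, with a median of 4.71. The groups overlapped, with control replicates 1, 4 and 5 within the cryptorchid range. Group means were 5.59 ± 0.448 (SD, n = 5) and 4.85 ± 0.599 (SD, n = 7), a log2 difference of -0.74 (95% interval -1.43 to -0.04, SE 0.330), or 1.67-fold lower (limma P = 0.0384, adjusted P = 0.490, exact two-sided rank sum P = 0.0480, within sets P = 0.0300). The log2 difference was -1.29 in set 1, which passed the unadjusted threshold alone, and -0.31 in set 2, which did not. The limma test of the difference between the sets gave an unadjusted P of 0.117 (adjusted P of 1.0), which does not show that the sets agree. In 8 of 12 fits that each left out 1 library the call was lost, with P-values of 0.0546 to 0.0939. The log2 difference was -0.64, -0.64, -0.73 and -0.76 without control replicate 2, 3, 4 or 5, and -0.59, -0.67, -0.69 and -0.72 without cryptorchid replicate 1, 2, 3 or 6.

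Tet2, the third TET enzyme (chr3:133463679-133545139, minus strand), lay at -0.80, 1.5, 1.65, 1.0 and 0.83 log2 RPM in control and at -0.19 to 2.63 with a median of 2.1 in cryptorchid libraries. Of 7 cryptorchid libraries, 5 were above every control library. The log2 difference of 1.0 (SE 0.688) did not pass the test (limma P = 0.165, exact P = 0.0732, within sets exact P = 0.0433), on 4 to 136 reads per library in the cryptorchid and 8 to 80 in the control group. It was 1.52 in set 1 and 0.56 in set 2.

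The balance among the TET genes was compared within each library, where scaling plays no part. The log2 ratio of Tet1 to Tet3 within a library ranged from -5.68 to -2.79 in control and from -2.66 to -0.51 in cryptorchid libraries. The groups did not overlap, and the difference was 2.83 (exact two-sided rank sum P = 0.00253, within sets P = 0.00333, both the smallest possible), with 2.72 in set 1 and 3.43 in set 2. For Tet2 to Tet3 the difference was 1.73 (exact P = 0.0303, within sets P = 0.020), with 2.81 in set 1 and 0.87 in set 2. The Tet2 to Tet3 call was lost without control replicate 1 (1.5, exact P = 0.0727), and without cryptorchid replicate 1, 2, 3, 4, 5 or 7 (1.46, 1.60, 1.64, 1.78, 1.94 and 1.68, exact P = 0.0519 each). Neither ratio passed in set 1 or set 2 alone or over the 5 same-numbered pairs, where the exact P cannot go below 0.10, 0.133 and 0.0625: Tet1 to Tet3 had these values, and Tet2 to Tet3 had 0.10, 0.533 and 0.0625. Adjusted over the 5 ratios compared by the Benjamini-Hochberg method, the exact P was 0.0126 for Tet1 to Tet3 and 0.0758 for Tet2 to Tet3.

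Expressed per length of merged exons, Tet3 made up a median of 92.0% of the TET sum in control libraries (85.1% to 94.4%) and 68.9% in cryptorchid libraries (51.6% to 78.5%). Tet1 made up 3.43% in control (1.99% to 13.3%) and 21.1% in cryptorchid libraries (13.4% to 39.2%), and Tet2 3.77% and 9.23%. Tet3 remained the largest of the 3 in all 12 libraries.

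**Figure D3:**
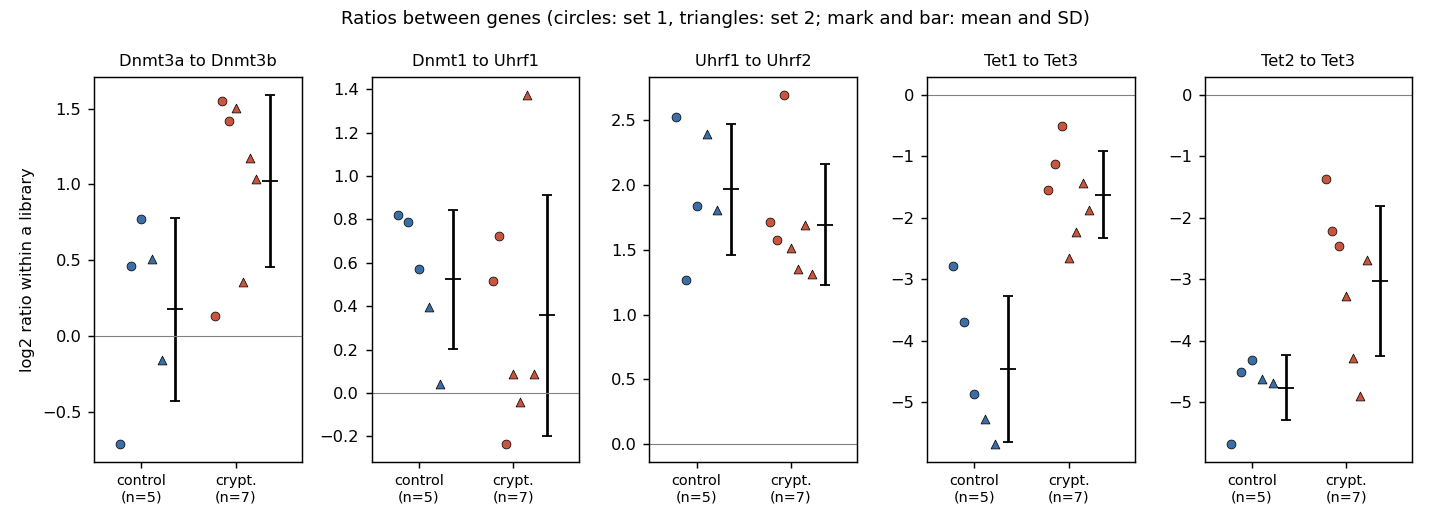
Log2 ratio between 2 genes within a library (vertical axis) for the 5 ratios compared, in 5 control and 7 cryptorchid libraries, with circles for technical set 1, triangles for set 2 and the mean with its SD. The groups do not overlap for Tet1 to Tet3, where control libraries reach up to -2.79 and cryptorchid libraries down to -2.66.

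Tdg, the glycosylase that removes formylcytosine and carboxylcytosine (chr10:82629828-82650799, plus strand), showed no detected difference. Its log2 difference was 0.28 (SE 0.488, limma P = 0.578, exact P = 0.432) on 33 to 235 reads per control library and 17 to 288 per cryptorchid library, with 0.57 in set 1 and 0.23 in set 2. Tdg shares 367 exon bases with Glt8d2 on the other strand, and as the counting was not stated to use strand, reads of the pair cannot be told apart.

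The order of the 10 genes was compared per length, as log2 RPM per kb of merged exons. In control libraries Uhrf1 was highest with 5.89, followed by Dnmt1 with 5.62, Dnmt3b with 4.69, Dnmt3a with 3.17, Uhrf2 with 2.91, Tet3 with 1.53, Tdg with 0.77, Dnmt3l with -0.56, Tet1 with -2.82 and Tet2 with -3.25. In cryptorchid libraries the same genes lay at 5.79, 5.36, 3.49, 2.81, 3.08, 0.79, 1.05, -1.32, -0.72 and -2.25. Dnmt1 above Dnmt3b, Dnmt3b above Dnmt3a and Uhrf2 above Tet3 held in all 12 libraries. Neighbours within their spread were Dnmt3a and Uhrf2, where Dnmt3a was above in 3 of 5 control and 2 of 7 cryptorchid libraries, and Tet3 and Tdg, where Tet3 was above in 3 of 5 and 3 of 7. Tet1 was above Tet2 in 2 of 5 control libraries and in 6 of 7 cryptorchid libraries. These levels assume that all merged exons are used, and isoforms in spermatogonia were not measured.

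**Figure D4:**
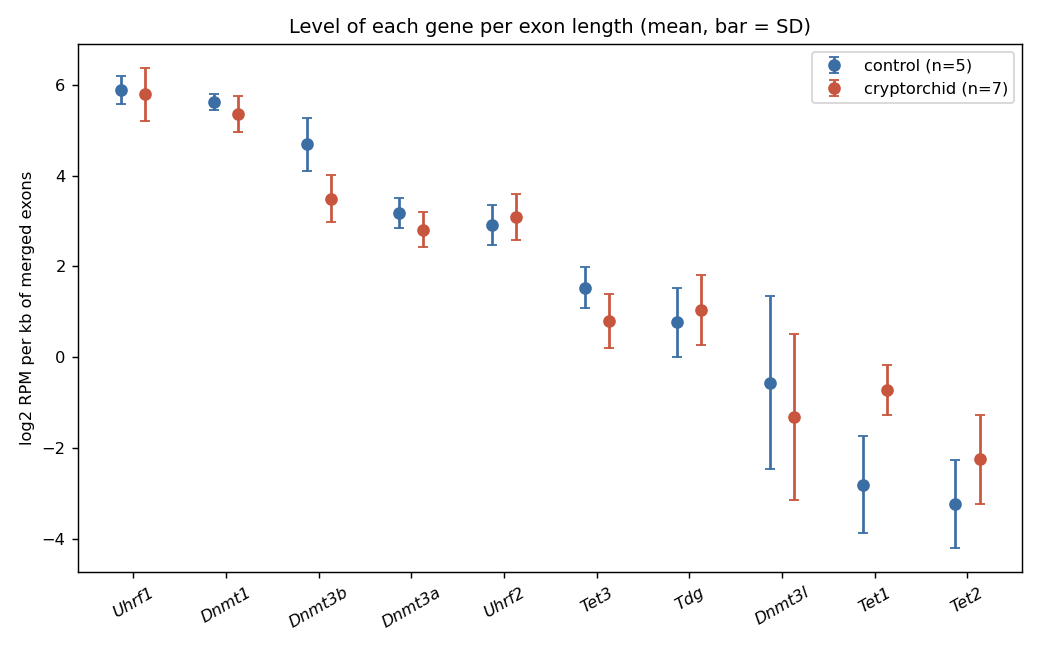
Level of each gene in log2 RPM per kb of merged exons (vertical axis), ordered by the control mean, as the mean with its SD over 5 control and 7 cryptorchid libraries. Uhrf1 and Dnmt1 lie at the top in both groups, and Tet1 shows the widest gap between group means, from -2.82 to -0.72.

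A further 59 genes of DNA methylation, in 6 lists, were in the table and tested. At an unadjusted limma P-value under 0.05, 4 were higher and 2 lower, shares near the 5.67% and 3.82% of all tested genes, 0 passed after adjustment over all genes, and their median log2 difference was 0.03. Of 11 partners of maintenance, such as the replication clamp Pcna, 1 was higher, the imprint-protecting zinc finger gene Zfp445 (log2 difference 0.68, limma P = 0.0495, exact P = 0.106, 0.47 in set 1 and 0.72 in set 2, named after its value was seen). Among 8 partners of de novo methylation, such as the piRNA gene Piwil4, and 8 cofactors or modulators of TET enzymes, such as Ogt, 0 passed in either direction.

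Of 14 genes of base excision repair and its accessory factors, 1 was higher, the stress-response gene Gadd45b, from 0.86 ± 2.0 log2 RPM (SD, n = 5) to 2.69 ± 0.787 (SD, n = 7), a log2 difference of 1.84 (SE 0.788, limma P = 0.0317, adjusted P = 0.477, exact P = 0.0732), with 1.88 in set 1 and 1.79 in set 2. Of 7 readers of methylated CpG, 1 was higher, Zbtb33, which encodes the repressor Kaiso, with a log2 difference of 0.82 (SE 0.368, limma P = 0.0386, exact P = 0.0732), with 0.08 in set 1 and 1.36 in set 2. The median log2 difference of the readers was 0.51, with 0.13 in set 1 and 0.89 in set 2.

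In the methyl donor cycle, which makes S-adenosylmethionine for the methyltransferases, 2 of 11 genes were lower and 1 was higher. Over all tested genes these shares were 3.82% and 5.67%. The median log2 difference of the 11 genes was -0.53, with -0.07 in set 1 and -0.60 in set 2. Their summed level differed by a log2 of 0.06 between the groups. Shmt2, the mitochondrial serine hydroxymethyltransferase that feeds folate with carbon units, fell from 6.67 ± 0.555 log2 RPM (SD, n = 5) to 5.68 ± 0.668 (SD, n = 7), a log2 difference of -0.99 (SE 0.341, limma P = 0.00968, adjusted P = 0.366, exact P = 0.0303), with -0.38 in set 1 and -1.41 in set 2.

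**Figure D5:**
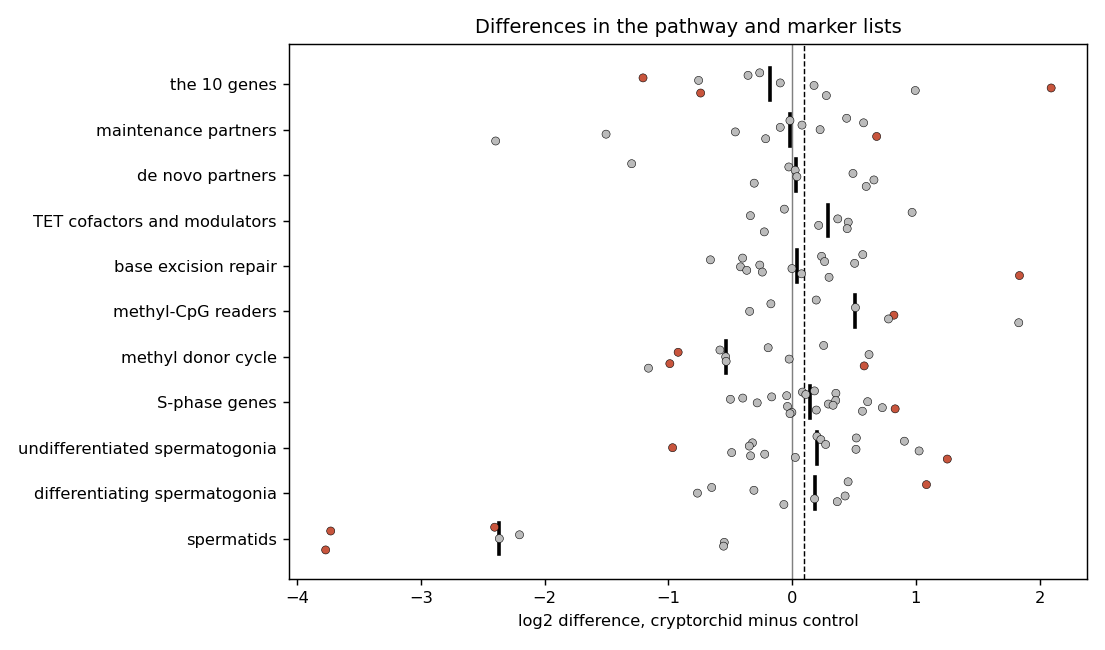
Log2 difference between cryptorchid and control of each tested gene (horizontal axis) in the 10 genes, the 6 pathway lists, S-phase genes and 3 germ cell marker lists. Red points have an unadjusted limma P-value under 0.05, thick bars are list medians, and the dashed line is the median of all tested genes at 0.10; the spermatid markers lie at a median of -2.37.

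Markers of other cells were compared between the groups, since sorted material can carry RNA of its surroundings. Over all tested genes, 5.67% were higher and 3.82% lower at an unadjusted limma P-value under 0.05. Of 7 spermatid markers, 0 had a higher mean in cryptorchid libraries and 3 were lower at an unadjusted limma P-value under 0.05 (Prm1, Prm2 and Tssk6, named after their values were seen), with a median log2 difference of -2.37, or -3.07 in set 1 and -2.45 in set 2. Their summed level was 492 to 2702 RPM in control and 13.5 to 1790 RPM in cryptorchid libraries, and Tnp2 and Tssk6 had 0 reads in 1 library each. These markers moved in the same direction as Dnmt3b and Tet3, and their part in those results was not tested.

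Germ cell lists closer to the sorted cells were compared at the same unadjusted threshold, which 5.67% of all tested genes passed higher and 3.82% lower. Of 15 genes of undifferentiated spermatogonia, 1 was higher (Tspan8, log2 difference 1.25) and 1 lower (Nanos3, -0.97). Of 9 genes of differentiating spermatogonia, 1 was higher (Stra8, 1.09). All 3 were named after their values were seen. The cryptorchid mean was higher for 9 of the 15 genes and for 5 of the 9 genes. The summed level of the differentiating list was 244 to 819 RPM in control and 308 to 861 RPM in cryptorchid libraries. The 9 spermatocyte markers summed to 637 to 1944 and 639 to 2167 RPM, with 0 past the threshold.

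Endothelial markers were low, and over the 12 libraries they moved in the direction of Tet1, with a higher cryptorchid mean for 6 of 6. Within sets, Tek was lower in set 1 (-0.26) and Emcn in set 2 (-1.36). Cdh5 and Vwf passed the unadjusted limma test (exact rank sum P = 0.0732 each). Emcn and Cldn5 had 0 reads in 7 of 12 libraries each. The summed level was 10.0 to 29.9 RPM in control and 18.4 to 50.2 RPM in cryptorchid libraries (exact rank sum P = 0.106). The sum of 9 macrophage markers was 3.62 to 25.2 and 11.3 to 37 RPM, with C1qa at 0 reads in 9 and C1qc in 10 of 12 libraries. Of the 7 macrophage markers tested, 4 had a higher cryptorchid mean, and 1 passed the unadjusted threshold as higher (Mrc1). The part of endothelial and macrophage markers in the Tet1 result was not tested. Sertoli cell markers summed to 45.4 to 264 and 42.0 to 250 RPM, with Gata4 at 2.92 and 2.59 and Gata6 at -0.11 and 0.73 log2 RPM. Leydig cell markers summed to 8.64 to 15.5 and 6.18 to 47.8 RPM, with Cyp11a1 at 0 reads in 6 libraries and Hsd3b1 in 8. Myoid cell markers summed to 1.46 to 16.5 and 0.714 to 14.5 RPM, with 1 marker higher (Des), and lymphocyte markers to 2.57 to 8.20 and 1.93 to 22 RPM. Cdh5, Vwf, Tek, Emcn, Cldn5, Mrc1 and Des were named after their values were seen.

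The genes whose levels followed each member most closely over the 12 libraries were listed by Pearson correlation among 8894 genes with a mean of at least 4 log2 RPM. For Dnmt3b these were Plekhg5 (r = 0.92) and Got2 (r = 0.92), the mitochondrial aspartate aminotransferase, whose own log2 difference was -1.45. For Tet1 they were Lrrk1 (r = 0.86) and Crebrf (r = 0.85), and for Tet3 Gab2 (r = 0.79) and Tpcn2 (r = 0.78). Dnmt1 went with Sufu (r = 0.88) and Aebp1 (r = 0.87), and Uhrf1 with Dclk2 (r = 0.91) and Sin3a (r = 0.91), a scaffold of histone deacetylase complexes. Uhrf2 went with Ube2e1 (r = 0.89) and Lin28b (r = 0.89), and Dnmt3a with Cyb561a3 (r = 0.84) and Aldh16a1 (r = 0.83). Tet2 went with Fastkd1 (r = 0.88) and Dlgap1 (r = 0.83), Tdg with Pik3r4 (r = 0.88) and Wasf3 (r = 0.87), and Dnmt3l with Eif2b1 (r = 0.93) and Pomgnt1 (r = 0.87). The points share group, technical set and depth, so these values describe likeness over these libraries.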

How the data were processed

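The members and the gene lists were chosen with earlier results of these data known. The authors checked the reads with FastQC 0.11.8, trimmed them with Trim Galore 0.6.6, mapped them to mm10 with HISAT2 2.1.0 and used SeqMonk to count reads on protein-coding genes. The values deposited are log2 RPM. Strand use and treatment of duplicates in counting were not given in the sources used here. RPM steps were scaled to whole reads per library, which held for values under 1000 reads within 0.02, and the lowest value of a library was taken as 0.9 reads. No molecular identifiers were used, so the floor of 3 reads covers counting error only. Log2 RPM values were tested without a pseudocount in limma 3.58.1 (R 4.3.3, lmFit and eBayes with trend, two-sided) for 16932 genes whose mean RPM had a log2 above -1, in 12 libraries without covariates. The study tested counts with edgeR, which does not apply to log2 values. Calls used 2-fold and P under 0.05, as well as Benjamini-Hochberg adjustment over all tested genes. Single genes and 5 ratios were tested by the exact two-sided Wilcoxon rank sum test over the 792 choices of 5 of 12 libraries, or 300 within sets (scipy 1.17.1). Technical sets were split at 52% even reads among genes of 1 to 20 reads. Gene positions and exon lengths came from GENCODE on GRCm38, the assembly of mm10, and start-site windows from RefSeq. The named genes were the 10 members, Dnmt3c, the 2 pathway genes in each direction with the smallest P, the 2 genes most correlated with each member and the markers used for sorting or purity. Some genes that this rule names are not reported here. Both tests were tested on simulated data. Alternatives covered scaling, pseudocounts of 1 and 0.1 RPM, filters, voom, array weights, a replicate block, the technical sets, leaving out each library and the rank sum test.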

Additional observations from a re-analysis of the deposited data

Results flagged for a closer look

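Single libraries stood apart from the rest of their group in 4 of the 30 groups of values checked, by the gap to the nearest library relative to the whole range. Chance gives about 1 in 20 such groups. Dnmt3a was at 7.80 log2 RPM in control replicate 4, where the other control libraries lay at 7.0 to 7.19 (gap over range 0.755). Dnmt3l was at -2.35 log2 RPM, on 2 reads, in control replicate 3, with the other control libraries at 1.41 to 2.07 (0.850). The log2 ratio of Uhrf1 to Uhrf2 was 2.70 in cryptorchid replicate 3 and 1.31 to 1.72 in the other cryptorchid libraries (0.708). The log2 ratio of Tet2 to Tet3 was -5.68 in control replicate 1 and -4.68 to -4.32 in the other control libraries (0.734).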

How the results depend on the processing

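Over the alternatives, 230 log2 differences of the 10 genes kept their direction and side of the unadjusted threshold, 12 lost and 2 gained the call (both Dnmt3a, with array weights, -0.54, and in set 2 alone, -0.80), and 4 turned. Dnmt3b and Tet1 passed the unadjusted threshold in every fit but that of set 1 alone, and Tet3 lost it in set 2 alone (-0.31), with array weights (-0.44) and in 8 of 12 fits without 1 library. Directions turned for Dnmt3a in set 1 alone (0.095), for Uhrf1 in set 1 alone (0.15), with the replicate block (0.0636) and without cryptorchid replicate 2 (0.0443, in a range of -0.2396 to 0.0443 without 1 library at a time), for the log2 ratio of Dnmt1 to Uhrf1 in set 2 alone (0.16) and for that of Uhrf1 to Uhrf2 in set 1 alone (0.12). Set 1 alone gave 1 of the 10 genes at P under 0.05 and 1 at 2-fold as well, and 632 calls over all genes, against 1002. Array weights put 2 of the 10 genes past the adjusted threshold (Dnmt3b, adjusted P = 0.00864, and Tet1, 0.0215), and 476 of all tested genes (2.81%), with 1585 unadjusted 2-fold calls over all genes. Adjusted P ranged from 0.00864 to 1.0 for Dnmt3b and from 0.0215 to 1.0 for Tet1 over all alternatives. The cause was not tested. Without 1 library at a time, 829 to 1248 genes were called in all, 2 to 3 of the 10 genes had P under 0.05, 2 to 2 passed 2-fold as well, and 0 to 0 the adjusted threshold.

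Replicate numbers do not show which libraries share a mouse. Deviations of same-numbered libraries correlated at 0.0488 to 0.411, over 0.1 in 4 of 5 pairs, but within technical sets at -0.0015 to 0.477, over 0.1 in 3 of 5 pairs, and 8 of 10 numbered libraries correlated best with their own number, a hint from the data and not from the design. With the replicate block, 1678 genes passed the unadjusted 2-fold call, and 949 genes (5.60%) passed the adjusted threshold, among them 1 of the 10 genes, Dnmt3b (adjusted P = 0.0108).

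Scaling moved the split of all calls: 603 higher and 399 lower as deposited (60.2% higher) became 457 and 542 with quantile normalization (45.7%), and the 10 genes kept their directions. Dnmt3l and Tet2 gave no value at the stricter filter. Low reads limit Tet1, Tet2, Dnmt3l and Dnmt3c.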
